A study of Mus musculus with 12 samples.

Results

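The galectins and their best known partner protein were followed across the tissues of the mouse intervertebral disc. The set held 9 genes, Lgals1, Lgals2, Lgals3, Lgals3bp, Lgals4, Lgals7, Lgals8, Lgals9 and Lgals12, chosen by symbol from the array's gene table, out of 19505 named genes. Each of the 9 had 1 probe set among the 22206 that were tested. RNA came from the annulus fibrosus (AF), the fibrous ring of the disc, and the nucleus pulposus (NP), its gel-like core. Tissue was taken from lumbar discs of 12-month-old mice on the C57BL/6 background, either wild type (WT) or heterozygous for TonEBP (TonEBP +/-), and hybridised to Clariom S Mouse arrays. TonEBP is the transcription factor encoded by Nfat5, which drives the response of cells to hypertonic stress. There were 4 groups of 3 arrays, AF WT, AF TonEBP +/-, NP WT and NP TonEBP +/-. Per the labels' protocols a sample was the pooled disc tissue of 1 mouse. The labels name no Cre driver or tissue restriction for the TonEBP allele. They tie no AF sample to an NP sample, and array numbers below only name the arrays.

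Galectins are lectins that bind beta-galactosides on glycoproteins and glycolipids. They are made in the cytosol, leave the cell without a signal peptide, and cross-link glycoproteins at the cell surface and in the matrix. Galectin-3, long known as the macrophage antigen Mac-2, is also abundant in the notochord-derived cells of the NP, where HIF-1 alpha has been described as its regulator.

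Of the 9 genes, 7 had a promoter window in RefSeq (build GRCm38.p6), which runs from 250 bases before to 50 bases after the gene's start. Windows are shown for the members with the clearest differences between the tissues, Lgals3, Lgals8 and Lgals9, and for the related gene Lgalsl, 5' to 3' on the strand of the gene. The searched motifs were the core of the tonicity element bound by TonEBP, TGGAAA, and the core of the hypoxia response element, ACGTG or GCGTG, each on both strands. Capitals mark the matches, and positions count from 1 at the start site that the table uses, which for Lgals4, Lgals7, Lgals8 and Lgalsl lies inside the annotated span of the gene. Lgals3 lies on the plus strand (chr14:47373610-47373909), and Lgals8 (chr13:12461689-12461988), Lgals9 (chr11:78984875-78985174) and Lgalsl (chr11:20831059-20831358) lie on the minus strand.
Lgals3: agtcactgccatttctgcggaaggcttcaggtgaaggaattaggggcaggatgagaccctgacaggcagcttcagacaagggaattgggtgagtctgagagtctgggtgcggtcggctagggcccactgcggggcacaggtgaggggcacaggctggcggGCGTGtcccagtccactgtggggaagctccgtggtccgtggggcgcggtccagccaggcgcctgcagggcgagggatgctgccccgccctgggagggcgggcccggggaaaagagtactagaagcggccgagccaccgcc
Lgals8: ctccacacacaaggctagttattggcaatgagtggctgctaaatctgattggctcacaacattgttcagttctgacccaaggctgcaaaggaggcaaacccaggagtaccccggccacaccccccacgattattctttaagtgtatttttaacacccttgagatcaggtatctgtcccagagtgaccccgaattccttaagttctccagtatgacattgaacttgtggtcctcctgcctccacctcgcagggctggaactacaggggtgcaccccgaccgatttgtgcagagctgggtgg
Lgals9: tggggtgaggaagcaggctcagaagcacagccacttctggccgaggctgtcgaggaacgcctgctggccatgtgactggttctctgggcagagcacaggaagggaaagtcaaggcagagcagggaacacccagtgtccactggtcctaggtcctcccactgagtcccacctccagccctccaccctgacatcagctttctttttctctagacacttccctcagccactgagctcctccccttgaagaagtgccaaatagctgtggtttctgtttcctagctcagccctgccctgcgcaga
Lgalsl: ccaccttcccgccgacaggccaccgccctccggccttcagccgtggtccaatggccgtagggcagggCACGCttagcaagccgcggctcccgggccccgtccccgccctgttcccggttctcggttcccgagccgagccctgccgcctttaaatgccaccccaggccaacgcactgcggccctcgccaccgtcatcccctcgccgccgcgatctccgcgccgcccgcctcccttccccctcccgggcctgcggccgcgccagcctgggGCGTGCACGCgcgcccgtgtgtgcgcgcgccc
The hypoxia core was in the windows of 2 members, Lgals3 (GCGTG, first base at position -90) and Lgals4, and also in that of Lgalsl. The same core was in 43.8% of all 32851 windows of this length. In Lgalsl it occurred 3 times, from positions -183, 19 and 24, the first and last of them on the reverse strand and the last pair side by side. The tonicity core was in the window of 1 member, Lgals7, at position 3, against 21.4% of all windows. The Lgals8 and Lgals9 windows held neither core. CG dinucleotides were frequent in the Lgals3 window (18) and the Lgalsl window (41), and fewer in those of Lgals8 (6) and Lgals9 (4), beside a median of 7 over all windows. At least as many as in Lgals3 were found in 29.7% of windows, and at least as many as in Lgalsl in 3.46%. A match is a run of letters and does not show that a factor binds there.

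Signals are log2 values per probe set as deposited. A probe set was counted as above background where it exceeded the 95th percentile of the 23 background probe sets of its array, which lay between 7.73 and 7.98 log2 in AF and between 7.11 and 7.33 in NP. AF arrays had higher medians (7.43 to 7.64) than NP arrays (6.82 to 6.87) and narrower interquartile ranges (2.36 to 3.11 against 3.61 to 3.80). Values between the tissues are therefore given after subtracting each array's median, with the deposited and a quantile-normalised scaling beside them where the reading differs. The third AF TonEBP +/- array had the widest interquartile range of the AF arrays (3.11). Replicates correlated at 0.942 to 0.976 in AF and 0.985 to 0.988 in NP over the tested probe sets. The Nfat5 probe set itself read 7.70 to 9.93 in AF WT, 8.74 to 8.94 in AF TonEBP +/-, 8.34 to 9.12 in NP WT and 9.06 to 9.62 in NP TonEBP +/-, so no lower signal of the targeted gene was detected in the heterozygotes. The difference was 0.09 log2 in AF (95% interval -0.83 to 1.01; limma, adjusted p = 0.944) and 0.50 in NP (-0.17 to 1.18; adjusted p = 0.911), so the AF interval still allows a lower signal. Whether that probe set lies in the altered part of the allele is not given in the sources used here, and genotype is stated as labelled. Annulus and tendon markers averaged 10.72 to 11.90 log2 on AF arrays and 7.74 to 8.41 on NP arrays, although Scx, Mkx and Tnmd among them were above background on no array. Of these 9 markers, 6 passed limma's test as lower in NP of WT mice and 2 as higher, the highest at 4.25 log2. The shares of all probe sets were 31.1% and 33.6%. In TonEBP +/- mice 6 were lower and 3 higher, up to 6.48 log2, beside 25.2% and 30.9%. NP markers averaged 13.99 to 14.17 log2 in NP WT and 9.59 to 11.05 in AF WT. Of the 9 NP markers measured, 7 passed as higher in NP of WT mice and 1 as lower. AF arrays also carried high signals of neutrophil and precursor genes, 17.24 to 18.67 on average for 7 of 8 listed genes, against 9.72 to 14.23 in NP. In such bulk tissue, fewer cells of a type and less RNA per cell cannot be told apart.

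The set divided into genes that were well measured in both tissues and genes that were not. Lgals1, Lgals3, Lgals3bp, Lgals8 and Lgals9 were above background on all 12 arrays. Lgals2, Lgals4 and Lgals12 were above background on none. Lgals7 was near the limit, above it on 1 of 3 arrays in AF WT, 1 in AF TonEBP +/-, 2 in NP WT and 1 in NP TonEBP +/-.

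**Figure D1:**
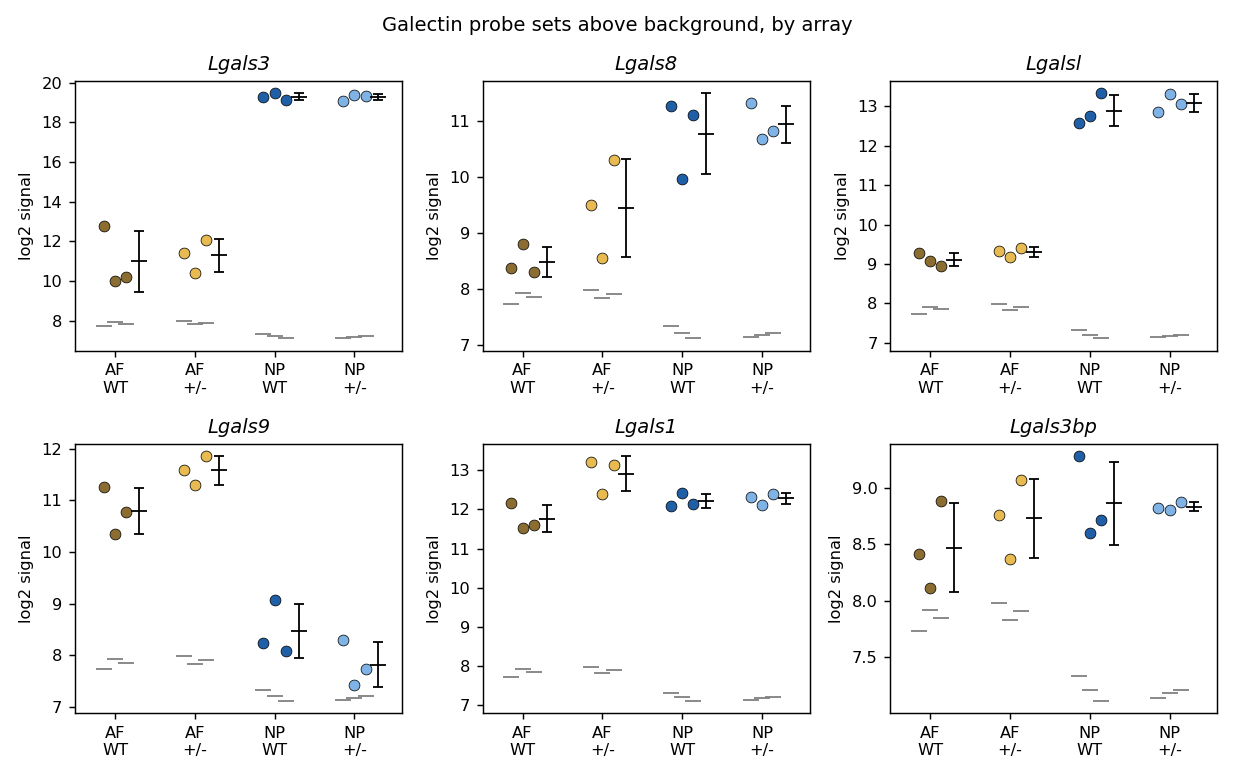
Log2 signal of the 5 galectin-set genes that were above background on all arrays, and of Lgalsl, by array (points) in AF and NP of WT and TonEBP +/- mice, with the group mean and SD (bars, n = 3) and the background level of each array (grey dashes). Lgals3 separates the tissues most widely, with NP arrays at 19.09 to 19.45 and AF arrays at 10.02 to 12.76, and Lgals9 runs the other way.

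Between NP and AF of WT mice, Lgals3 was far higher in NP, Lgals8 and the galectin-like gene Lgalsl were also higher there, and Lgals9 was higher in AF. Of the 9 members, 6 passed limma's test at an adjusted p of 0.05, with 4 higher and 2 lower in NP, beside 64.7% of all probe sets, 33.6% higher and 31.1% lower. The share of members called was thus near that of the array as a whole. The split of the calls depended on the scaling. As deposited 2 members were higher and 4 lower in WT, the 2 being Lgals3 and Lgals8 and the 4 being Lgals9 and the genes below background Lgals2, Lgals4 and Lgals12, beside 4907 higher and 12425 lower of all 22206 probe sets. After quantile normalisation 2 were higher and 1 lower, beside 5979 higher and 5991 lower of all probe sets. The values of 6 members did not overlap between the tissues, beside 71.6% of all probe sets. In the TonEBP +/- mice 5 of 9 members were called, 3 higher and 2 lower, beside 56.1% of all probe sets (30.9% higher and 25.2% lower), and 6 did not overlap, beside 60.4%. As deposited 7 were called there, 2 higher and 5 lower (Lgals1, Lgals2, Lgals4, Lgals9 and Lgals12), beside 4433 higher and 12021 lower of all probe sets. After quantile normalisation 2 members were higher and 3 lower there, beside 5469 higher and 5378 lower of all probe sets. Lgals12 is among the called members in both genotypes, but it was above background on no array and no change is given for it. Of the members with a change given, 3 kept their call in the same direction in all 3 scalings and both genotypes, Lgals3 and Lgals8 as higher in NP and Lgals9 as lower. In WT, 19.1% of all probe sets were higher in NP in all 3 scalings and 21.7% were lower, and in TonEBP +/- the shares were 17.9% and 18.0%.

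Lgals3 encodes galectin-3, the chimera-type galectin that joins 1 carbohydrate-binding domain to a collagen-like tail through which it self-associates. The gene spans chr14:47373860-47386167 (GRCm38.p6). In NP WT its signals were 19.28, 19.45 and 19.10, and in NP TonEBP +/- 19.09, 19.35 and 19.33. In AF WT they were 12.76, 10.02 and 10.23, and in AF TonEBP +/- 11.43, 10.39 and 12.06. The NP arrays lay close together and far above all AF arrays, which spread widely. After subtraction of array medians the level was 12.41 ± 0.18 in NP WT and 3.39 ± 1.54 in AF WT (SD, n = 3). The difference was 9.02 log2 (SE 0.50, 95% interval 7.96 to 10.07), or 518-fold (limma, adjusted p = 4.22e-10). It was 8.28 on the deposited values and 8.20 after quantile normalisation. Among the 6244 probe sets above background on all 12 arrays, no other had as large an excess in NP over AF of WT mice in any of the 3 scalings. In TonEBP +/- mice the difference was 8.65 log2 (SE 0.50), or 403-fold (limma, adjusted p = 5.18e-10), and Lgals3 stood at rank 9 from the top, or 7 after quantile normalisation. The group means of Lgals3 in NP lay within 0.68 log2 of the highest value of the table, 19.93. The effect of that ceiling on the size of the change was not tested.

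The AF signal of Lgals3 varied more than that of any other member in AF WT, with an SD of 1.53 log2. AF WT array 1, with the highest AF signal of Lgals3 (12.76), also had the highest mean of the NP markers among AF arrays, 11.05 against 9.59 and 9.64 on the other AF WT arrays. Of the 9 measured NP markers, 7 were above background on all AF WT arrays and 3 on all AF TonEBP +/- arrays. In AF TonEBP +/- the NP markers averaged 9.17, 9.41 and 9.71, while Lgals3 read 11.43, 10.39 and 12.06. Macrophage markers (9 of 10 measured) averaged 8.73, 7.98 and 8.48 in AF WT and 8.96, 8.92 and 9.61 in AF TonEBP +/-, with Cx3cr1 and Marco above background on no AF array. The part of NP cells or macrophages in the AF signal of Lgals3 was not tested. Without AF WT array 1 the NP excess over AF WT was 9.90 log2, the highest value over the 12 single-array omissions.

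Lgalsl, a galectin-like gene outside the set, had the next clearest pattern. Its signals were 12.58, 12.76 and 13.33 in NP WT and 12.86, 13.31 and 13.06 in NP TonEBP +/-. In AF WT they were 9.27, 9.08 and 8.96, and in AF TonEBP +/- 9.33, 9.17 and 9.40. The tissues were separated by over 3 log2 units, and AF arrays were tightly grouped. The NP excess was 4.52 log2 (SE 0.25), or 23-fold, in WT (limma, adjusted p = 4.98e-10) and 4.47 (SE 0.25), or 22.1-fold, in TonEBP +/- (adjusted p = 4.43e-10). The other relative with a probe set, Grifin, a lens galectin-fold protein, was above background on all 12 arrays and was lower in NP of WT mice by -0.62 log2 (SE 0.22; limma, adjusted p = 0.0229), as it was in the other scalings. In TonEBP +/- mice -0.33 did not pass (adjusted p = 0.223), whereas -1.02 as deposited and -0.71 after quantile normalisation did (adjusted p = 0.000929 and 0.0255).

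Lgals8 encodes galectin-8, a tandem-repeat galectin that recognises damaged endosomes and binds integrins. It lies at chr13:12439402-12464977. Signals were 11.27, 9.95 and 11.10 in NP WT and 11.31, 10.68 and 10.81 in NP TonEBP +/-. In AF WT they were 8.36, 8.79 and 8.30, and in AF TonEBP +/- 9.49, 8.55 and 10.29. AF WT was the lowest group and did not reach the lowest NP array, whereas the third AF TonEBP +/- array exceeded the second NP WT array on the deposited scale. The NP excess was 3.03 log2 (SE 0.42), or 8.17-fold, in WT (limma, adjusted p = 1.18e-05) and 2.18 (SE 0.42), or 4.54-fold, in TonEBP +/- (adjusted p = 0.00031). Over scalings it ranged from 2.15 to 3.03 in WT and from 1.26 to 2.18 in TonEBP +/-. Of the 6244 probe sets above background on all 12 arrays, 11% had at least as high a difference in WT after median subtraction. In TonEBP +/- the share was 19.2%.

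Lgals9 encodes galectin-9, a tandem-repeat galectin of haematopoietic and endothelial cells and a ligand of the T cell surface protein Tim-3 (Havcr2). It lies at chr11:78962979-78984924 and was the member that was higher in AF. Signals were 11.25, 10.35 and 10.78 in AF WT and 11.59, 11.29 and 11.86 in AF TonEBP +/-. In NP WT they were 8.24, 9.07 and 8.09, and in NP TonEBP +/- 8.30, 7.43 and 7.74. Every AF array exceeded every NP array, and the NP arrays lay closer to background. Lgals9 in NP differed from AF by -1.58 log2 (SE 0.34), 3-fold lower, in WT (limma, adjusted p = 0.000737) and by -3.07 (SE 0.34), 8.39-fold lower, in TonEBP +/- (adjusted p = 9.46e-07). On the deposited values the differences were -2.32 and -3.76. Macrophage markers averaged 7.98 to 9.61 on the AF arrays and 6.28 to 7.15 on the NP arrays, and neutrophil and precursor markers were likewise higher in AF. Of the 9 measured macrophage markers, Adgre1, Mrc1, C1qa, C1qb, Cx3cr1 and Marco were above background on no NP array. In WT 6 of the 9 passed as lower in NP and 1 as higher, beside 31.1% and 33.6% of all probe sets. In TonEBP +/- mice 7 passed as lower and 1 as higher, beside 25.2% and 30.9%. The highest difference among them was 3.45 log2 in WT and 1.43 in TonEBP +/-. The part of these cells in the Lgals9 difference was not tested.

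Lgals1 encodes galectin-1, a prototype galectin that forms homodimers and is abundant in mesenchymal cells. It lies at chr15:78926725-78930465. Signals were 12.15, 11.52 and 11.60 in AF WT and 13.21, 12.40 and 13.14 in AF TonEBP +/-. In NP WT they were 12.09, 12.41 and 12.13, and in NP TonEBP +/- 12.31, 12.12 and 12.40. The NP arrays differed little, and the AF TonEBP +/- group was the highest on the deposited scale. The tissue comparison of Lgals1 turned with the scaling. In WT, NP exceeded AF by 1.19 log2 after median subtraction (SE 0.26; limma, adjusted p = 0.000892), by 0.45 as deposited (adjusted p = 0.108), and lay at -0.32 after quantile normalisation (adjusted p = 0.258). In TonEBP +/- the same values were 0.05 (adjusted p = 0.871), -0.64 (adjusted p = 0.0317) and -1.34 (adjusted p = 0.000162). Of the 6244 probe sets above background on all arrays, 48.1% had at least as high a difference in WT after median subtraction.

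Lgals3bp encodes a secreted glycoprotein with a scavenger receptor domain that binds galectins. It lies at chr11:118392747-118401959. Its signals were 8.41, 8.11 and 8.88 in AF WT, and 8.76, 8.37 and 9.07 in AF TonEBP +/-. In NP WT they were 9.28, 8.60 and 8.71, and in NP TonEBP +/- 8.82, 8.80 and 8.87. The deposited signals of the groups overlapped throughout. The NP excess was 1.13 log2 in WT after median subtraction (SE 0.28; limma, adjusted p = 0.00207), but 0.39 as deposited (adjusted p = 0.182) and 0.52 after quantile normalisation (adjusted p = 0.104). In TonEBP +/- it was 0.79 (adjusted p = 0.0231), 0.10 (adjusted p = 0.739) and 0.24 (adjusted p = 0.482). Of the 6244 probe sets above background on all arrays, 49.5% had at least as high a difference after median subtraction, in either genotype.

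**Figure D2:**
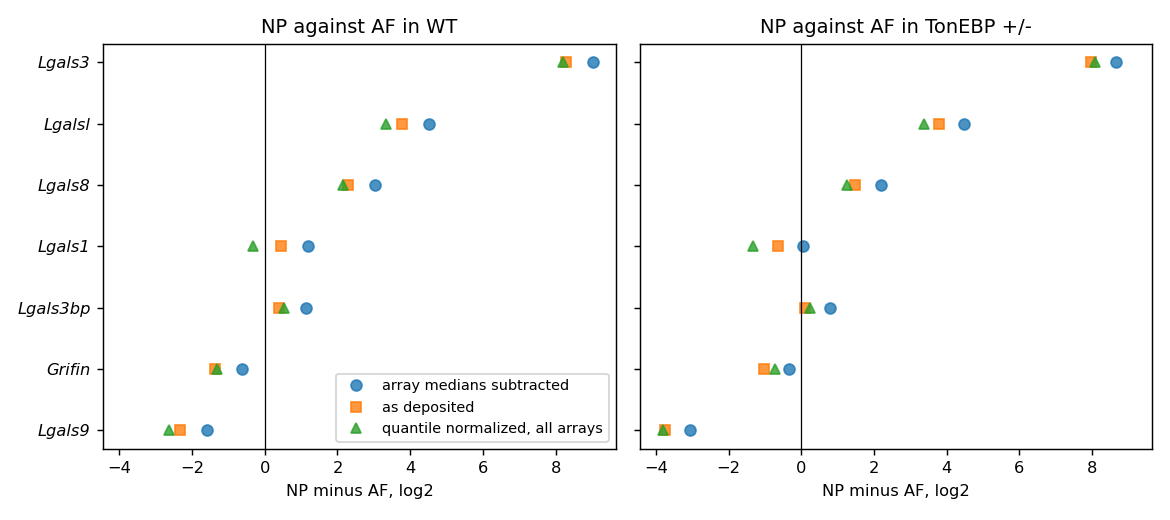
NP minus AF in log2 for the set's measured genes other than Lgals7 and for Lgalsl and Grifin, in WT (left) and TonEBP +/- (right), under 3 scalings of the arrays (circles, squares and triangles). Lgals3, Lgals8 and Lgalsl lie above 0 and Lgals9 lies below 0 under all 3, whereas Lgals1 falls on both sides of 0.

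The epithelial and adipose members gave little signal in either tissue. Lgals7 encodes galectin-7, a galectin of stratified epithelia. Its signals were 7.98, 7.91 and 7.50 in AF WT, 7.89, 8.21 and 6.95 in AF TonEBP +/-, 7.23, 7.71 and 7.61 in NP WT, and 7.10, 7.27 and 6.95 in NP TonEBP +/-. Neighbouring groups in the order of means overlapped, and the NP excess of 0.46 log2 in WT did not pass the test (limma, adjusted p = 0.14). Of 6 epidermal keratinocyte markers, none was above background on all 3 arrays of any group.

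Lgals4, a galectin of the gut epithelium, read 5.92 to 6.20 in AF and 4.91 to 5.64 in NP. Lgals2, a prototype galectin also known from the gut, read 6.65 to 7.14 in AF and 5.99 to 6.25 in NP. Lgals12, a galectin of adipocytes and myeloid cells, read 5.13 to 5.95 in AF and 3.55 to 4.25 in NP. Lgals2, Lgals4 and Lgals12 stayed below the background level of every array, whatever their order between the tissues. With the median of the background probe sets as the limit, a choice made after the values were seen, Lgals4 and Lgals12 still passed on no array, Lgals7 passed on all, and Lgals2 passed on 3 of 3 arrays in AF WT, 1 in AF TonEBP +/-, 2 in NP WT and 3 in NP TonEBP +/-. Of 6 adipocyte markers, Plin1, Cidec, Lep and Retn were above background on no array. Adipoq and Fabp4 were above it on at least 1 array of each AF group and on no NP array. In each AF group 1 of the 6 was above it on all 3 arrays.

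**Figure D3:**
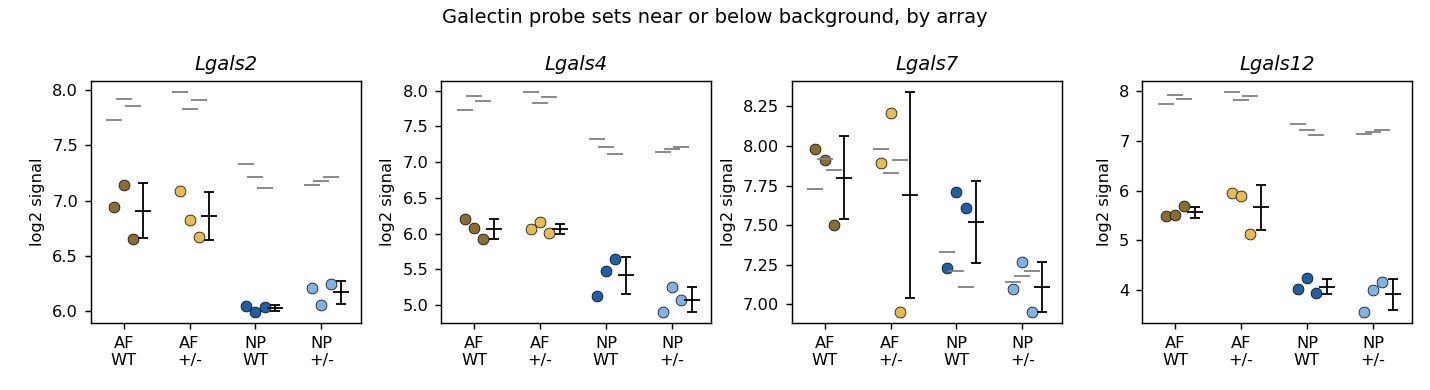
Log2 signal of Lgals2, Lgals4, Lgals7 and Lgals12 by array (points), with group mean and SD (bars, n = 3) and each array's background level (grey dashes). Lgals2, Lgals4 and Lgals12 lie below the dashes on all 12 arrays, and Lgals7 straddles them.

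Genotype was compared within each tissue to ask how the loss of 1 TonEBP allele relates to the galectins. In AF no member passed limma's test, beside 0.671% of all probe sets. An unadjusted p under 0.05 was found for 1 of the 9 members, Lgals1, beside 3951 of all 22206 probe sets. The TonEBP +/- arrays read higher for Lgals1, Lgals8 and Lgals9. For Lgals1 the 3 AF TonEBP +/- arrays, at 12.40 to 13.21, all exceeded the 3 AF WT arrays, at 11.52 to 12.15. The difference was 1.16 log2 (SE 0.29, 95% interval 0.55 to 1.77), or 2.23-fold (limma, unadjusted p = 0.000926, adjusted p = 0.0641). Without array weights it had an adjusted p of 0.0235, and without AF TonEBP +/- array 2 the difference was 1.42 (adjusted p = 0.00819). It did not pass in the other 11 omissions (adjusted p up to 0.234) or on AF arrays alone (adjusted p = 0.119), and passed in 2 of 7 other settings. Lgals9 differed by 0.79 (95% interval -0.01 to 1.59; limma, adjusted p = 0.286) with no overlap, and Lgals8 by 0.96 (-0.01 to 1.93; adjusted p = 0.286) with overlap. The values of 2 of 9 members did not overlap between genotypes in AF, beside 22.3% of all probe sets. The median difference of the 9 members was 0.26 log2, beside -0.04 over all probe sets and 0.14 over those above background on all 3 arrays of a group.

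Marker lists of macrophages, osteoclasts and endothelium, among others, also averaged higher on the AF arrays of heterozygotes. Some lists did not. Erythroid markers (3 of 6 measured) averaged 12.54 to 12.64 in AF WT and 11.80 to 12.73 in AF TonEBP +/-. Lymphocyte markers (4 of 5 measured) averaged 7.94 to 8.07 and 7.87 to 8.24. Skeletal muscle markers averaged 6.90 to 7.21 and 6.41 to 7.41, and NP markers 9.59 to 11.05 and 9.17 to 9.71. Macrophage markers averaged 7.98 to 8.73 in AF WT and 8.92 to 9.61 in AF TonEBP +/-. Osteoclast markers, all 6 of them measured, averaged 7.29 to 9.00 and 9.85 to 10.98, and 2 of them, Acp5 (4.13 log2; limma, adjusted p = 0.0386) and Atp6v0d2 (3.45; adjusted p = 0.0146), passed the test (on AF arrays alone the adjusted p-values were 0.105 and 0.0961), while Ocstamp, Dcstamp and Calcr were above background on no AF array. Endothelial markers averaged 7.59 to 8.30 and 8.22 to 9.37 over 5 genes, with Tek above background on no AF array. No macrophage or endothelial marker passed. Of 9 annulus and tendon markers 2 passed as higher in heterozygous AF and 1 as lower, beside 0.671% of all probe sets. The part of these cells in the Lgals1, Lgals8 and Lgals9 values was not tested.

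Lgals3 differed by 0.29 log2 in AF (95% interval -0.88 to 1.46), Lgals3bp by 0.26 (-0.38 to 0.90) and Lgals7 by -0.11 (-0.79 to 0.57), and none of the 3 passed. For Lgals3 the interval runs from 0.545-fold to 2.75-fold, and omitting single arrays moved the difference from -0.20 to 1.17, so that changes of that size were not detectable here. The fit shares 1 spread per probe set over both tissues, apart from the tissue weight. The Lgals3 SDs were 1.53 and 0.84 in the AF groups against 0.18 and 0.15 in the NP groups, so this AF interval can be too narrow.

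In NP the differences between genotypes were small for Lgals1, Lgals3, Lgals3bp and Lgals8, and larger for Lgals7 and Lgals9. No member passed limma's test, beside 0.365% of all probe sets. An unadjusted p under 0.05 was found for 1 of the 9 members, Lgals9, beside 1443 of all 22206 probe sets. Lgals3 differed by -0.02 log2 (95% interval -0.88 to 0.84), Lgals1 by 0.07 (-0.38 to 0.52), Lgals3bp by -0.03 (-0.50 to 0.44) and Lgals8 by 0.16 (-0.55 to 0.88). These intervals use a spread shared with the AF arrays, so they bound only roughly the changes that 3 arrays a group could have missed. Lgals9 was lower in TonEBP +/- by -0.64 (-1.23 to -0.05; limma, unadjusted p = 0.0341, adjusted p = 0.695), with overlapping groups. Lgals7, near background, differed by -0.41 (-0.91 to 0.09; limma, adjusted p = 0.874), also with overlapping groups. The groups of 1 member did not overlap, beside 11.3% of all probe sets, and that member was Lgals2, which was below background.

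**Figure D4:**
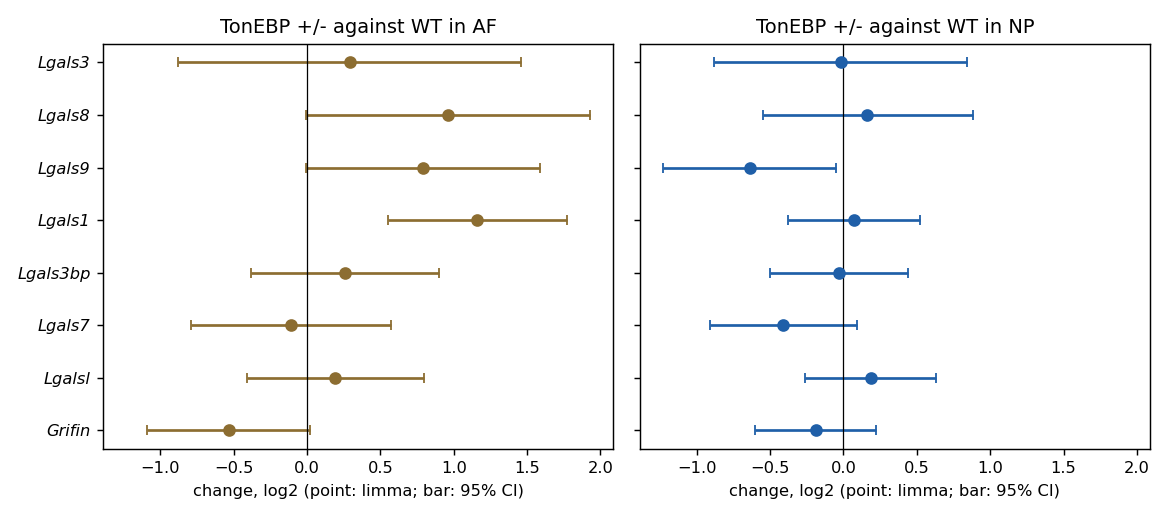
TonEBP +/- minus WT in log2 with 95% confidence intervals from limma, in AF (left) and NP (right), for the 6 measured members and for Lgalsl and Grifin. In AF the interval of Lgals1 lies above 0 (0.55 to 1.77), and in NP that of Lgals9 lies below 0 (-1.23 to -0.05), and neither passed adjustment over all probe sets.

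The difference between the tissues in their genotype response was tested as an interaction. No member passed it in limma, beside 0.874% of all probe sets. An unadjusted p under 0.05 was found for 2 of the 9 members, beside 3116 of all 22206 probe sets. For Lgals9 the NP response was -1.43 log2 relative to the AF response (SE 0.47, 95% interval -2.43 to -0.44; limma, unadjusted p = 0.00739, adjusted p = 0.153), and for Lgals1 it was -1.09 (SE 0.36, -1.84 to -0.34; adjusted p = 0.153). Group means of Lgals9 were higher in heterozygous AF and lower in heterozygous NP. Neutrophil and precursor markers had the same signs, at 17.24 to 17.61 in AF WT, 18.17 to 18.67 in AF TonEBP +/-, 12.54 to 14.23 in NP WT and 9.72 to 11.78 in NP TonEBP +/-, and in NP 4 of 7 were lower and passed limma's test, Mpo at -3.33 (adjusted p = 0.00244), Elane at -3.21, Ltf at -2.47 and Camp, which was above background on no NP TonEBP +/- array and at least 3.65-fold lower. None of the 7 passed in AF. On NP arrays alone no probe set passed between genotypes, and these 4 had adjusted p-values of 0.123 to 0.345 (1383 probe sets had an unadjusted p under 0.05 in that limma fit). Over single-array omissions Mpo kept its call in 12 of 12, Elane in 11 (not without NP WT array 2), Camp in 7 and Ltf in 6. In NP 2 of 3 measured erythroid markers and 1 of 4 lymphocyte markers also passed as lower, beside 0.365% of all probe sets. The part of all these cells in the Lgals9 values was not tested.

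Galectin ligands are built by glycosyltransferases, with Mgat enzymes that branch N-glycans, B4galt enzymes that add galactose and sialyltransferases that cap it. Of 19 listed branching and lactosamine enzymes 18 were measured, and none passed a genotype or interaction test. Between the tissues of WT mice 8 were higher and 2 lower in NP, beside 33.6% and 31.1% of all probe sets, and B3gnt4 among the higher was below background on every array. The counts were 6 and 6 on the deposited values and 6 and 4 after quantile normalisation. The median difference of the list was 0.61 log2 beside -0.10 over all probe sets, but -0.13 beside -0.84 as deposited and 0.27 beside -0.07 after quantile normalisation. Of the 18 enzymes 14 were above background on all 3 arrays of a group. Over the 11508 probe sets of that kind the median was 0.95 after median subtraction, with 6484 called higher in NP and 2715 lower. Those higher in all 3 scalings were Mgat1, Mgat2, Mgat4a, Mgat5 and B4galt5, and those lower were Man2a1 and B4galt2, the latter by at least 1.06-fold because no NP array was above background for it. Mgat4a was higher by 2.86 log2 (limma, adjusted p = 8.08e-07), Mgat5, which makes the branch favoured by galectin-3, by 2.79 (adjusted p = 7.2e-07), Mgat2 by 2.37 and Mgat1 by 1.94. Man2a1, a Golgi mannosidase, was lower at -0.95 (adjusted p = 0.0208). In TonEBP +/- mice 6 were higher and 4 lower, beside 30.9% and 25.2% (4 and 8 as deposited, 5 and 6 after quantile normalisation), and Mgat4a and Mgat5 differed by 3.35 and 2.03. B4galt5 was above background on no AF WT array, and its excess there was at least 2.12-fold, from NP signals against the background level.

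Of 13 sialyltransferases and O-glycan core enzymes 12 were measured, and none passed a genotype or interaction test. In WT 6 were higher and 3 lower in NP, in TonEBP +/- also 6 and 3, beside 33.6% and 31.1% of all probe sets in WT and 30.9% and 25.2% in TonEBP +/-. The lower genes included Gcnt3 and Gcnt4, which were below background on every array, so that no change is given for them. In WT the counts were 5 and 5 as deposited, and 5 and 6 after quantile normalisation, and in TonEBP +/- 4 and 5, and 4 and 4. The alpha-2,3 sialyltransferases St3gal4, St3gal6 and St3gal3 were higher in NP of WT mice by 3.36, 3.27 and 3.20 log2 (limma, adjusted p = 9.74e-09, 9.75e-09 and 3.4e-08) and by 3.00, 3.07 and 3.30 in TonEBP +/-. St6gal1, whose alpha-2,6 cap blocks galectin binding, turned on the scaling. It gave -0.17 in WT and -0.41 in TonEBP +/- after median subtraction and did not pass (limma, adjusted p = 0.646 and 0.271), but was called lower in NP as deposited, at -0.91 and -1.10 (adjusted p = 0.0132 and 0.00443), and after quantile normalisation, at -0.81 and -0.86 (adjusted p = 0.039 and 0.0308). Gcnt2, which branches lactosamine chains, was lower in NP of WT mice at -2.30 (adjusted p = 2.27e-05). The median difference of the list in WT was 0.88 log2, 0.14 as deposited and -0.13 after quantile normalisation. The first is to be set beside 0.95 over the probe sets above background on all 3 arrays of a group.

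Of 27 reported binding partners 26 were measured, and in WT 12 were higher and 7 lower in NP, beside 33.6% and 31.1% of all probe sets (10 and 13 as deposited, 9 and 6 after quantile normalisation), with a median of 0.01 log2 beside -0.10 over all probe sets. Of the lower genes Trem2 and Calcoco2 were below background in both tissues. As deposited the median was -0.73, beside -0.84 over all probe sets, and after quantile normalisation -0.06, beside -0.07. The higher genes included the lysosomal glycoproteins Lamp1 (2.50 log2) and Lamp2 (2.42), the integrin chain Itgb1 (3.55), the immunoglobulin-family protein Bsg (3.17) and the receptor Tgfbr2 (3.28). The integrin chain Itga5 and Egfr were above background on no AF array, so that their excess in NP WT was at least 6.16-fold and at least 1.79-fold. The lower genes included the leukocyte phosphatase Ptprc (-2.67, the gene of CD45), Cd44 (-1.52) and the proteoglycan Vcan (-4.50). In TonEBP +/- mice 11 were higher and 10 lower, beside 30.9% and 25.2% (9 and 14 as deposited, 8 and 11 after quantile normalisation), with Ptprc at -5.84 and Vcan at -2.99. The lower genes there again included Trem2 and Calcoco2, and also Havcr2 and Thy1, all below background on every array.

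**Figure D5:**
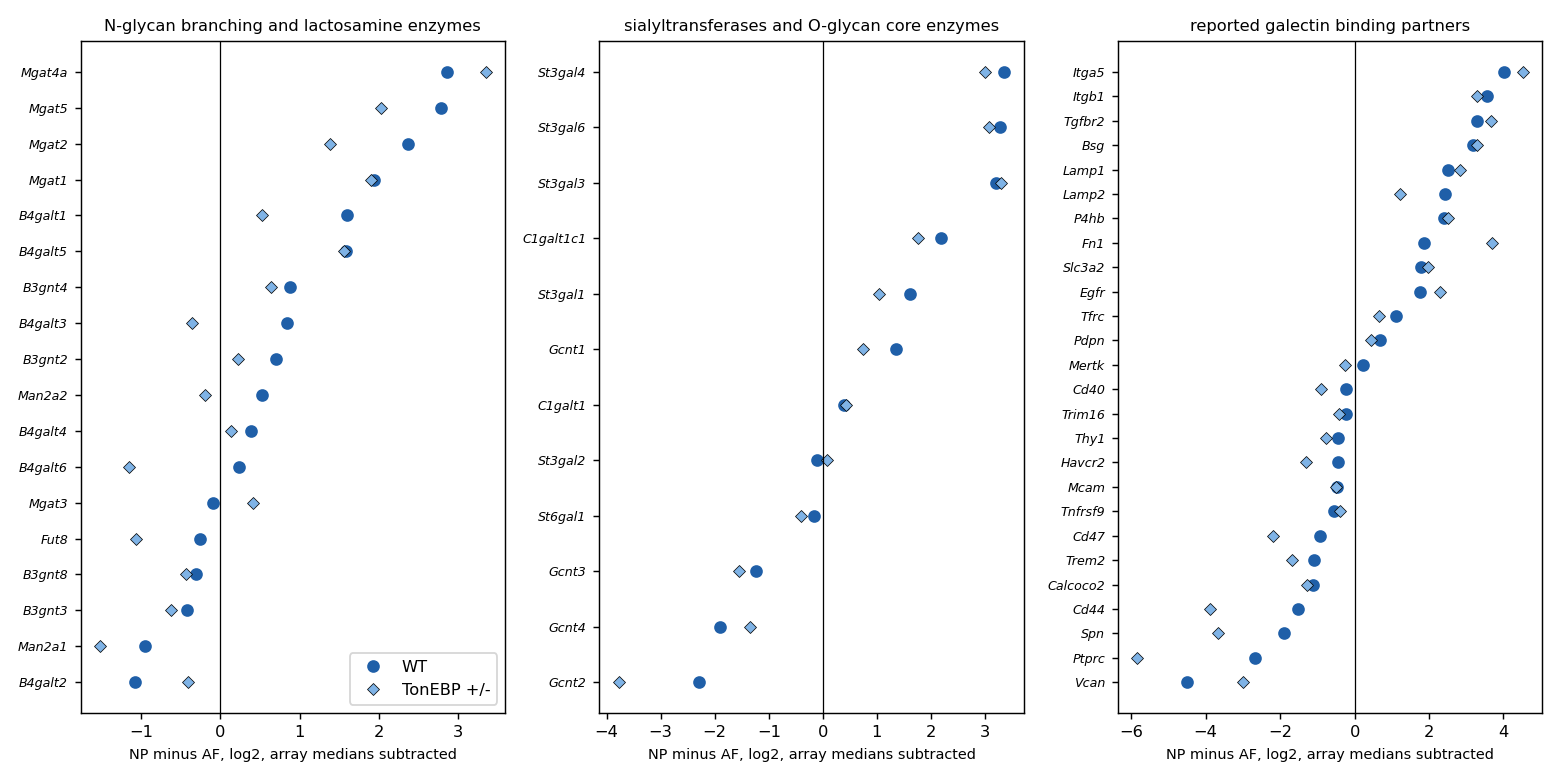
NP minus AF in log2 after subtraction of array medians for the measured enzymes and partners of galectins, in WT (circles) and TonEBP +/- (diamonds), each gene on its own line. St3gal3, St3gal4 and St3gal6 lie near 3 in both genotypes, Ptprc and Vcan lie far below 0, and points of genes below background in a tissue, such as Itga5 and Egfr in AF, do not give a measured size.

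Among the 26 measured partners 1 passed the genotype test in AF, beside 0.671% of all probe sets, and none passed in NP. The 1 was fibronectin (Fn1), a matrix glycoprotein that galectins bind. Fn1 read 17.04, 17.98 and 17.77 in AF WT and 15.81, 16.31 and 15.95 in AF TonEBP +/-. In NP WT it read 18.84, 18.83 and 18.49, and in NP TonEBP +/- 19.20, 19.07 and 18.84. The AF genotypes did not overlap, and the difference was -1.57 log2 (SE 0.29; limma, adjusted p = 0.0352). The fit on AF arrays alone gave an adjusted p of 0.102, and the call was lost in 4 of 12 single-array omissions, those of AF WT arrays 2 and 3 and AF TonEBP +/- arrays 1 and 3 (adjusted p up to 0.153). Fn1 and Ptprc passed limma's interaction test, Fn1 at 1.89 (adjusted p = 0.0257) and Ptprc at -3.11 (adjusted p = 0.0223), beside 0.874% of all probe sets. Each lost its call in 6 of 12 omissions, those 4 among them. In NP the Fn1 signals, up to 19.20, lay near the highest value of the table, 19.93. The effect of that ceiling was not tested. Ptprc read 14.32, 12.78 and 13.76 in AF WT, 15.28, 14.68 and 15.62 in AF TonEBP +/-, 10.90, 10.25 and 9.45 in NP WT and 8.63, 8.36 and 9.00 in NP TonEBP +/-. The Ptprc groups did not overlap within either tissue, with the heterozygotes higher in AF and lower in NP.

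The genes whose array-by-array pattern was most like each member's were taken from 9989 named candidates, by Pearson correlation of median-subtracted values over the 12 arrays. The arrays share the tissue difference, whose part in these coefficients was not tested. With Lgals3 2306 candidates exceeded 0.95, with Lgals8 642, with Lgals9 357 and with Lgals3bp 100. For Lgals3 the top genes were Syne1 (r = 0.999), Rab38 (0.998) and Mbd2 (0.997). For Lgals8 they were Ncoa5 (0.988), Insig2 (0.987) and Tubgcp5 (0.986), and for Lgals9 Myo1g (0.993), Asf1b (0.991) and Il17ra (0.99). For Lgals1, where only 4 candidates exceeded 0.95, they were Cmtr1 (0.962), Plp2 (0.96) and Atp5b (0.959). For Lgals3bp they were Rps19 (0.98), Galnt1 (0.976) and Nipbl (0.975).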

How the data were processed

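The authors deposited a log2 signal for each probe set on each array. Affymetrix Expression Console and RMA are named, per the submitters' processing notes, and no version is. Which arrays were normalised together is not given in the sources used here. Of 28846 probe sets, 6640 controls were left out and 22206 were tested. The members and the lists of enzymes, partners and cell markers were chosen with earlier results of these data known.

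Changes were fitted with limma 3.58.1 (R 4.3.3), with 1 mean per group, a weight per tissue (0.736 for AF and 1.358 for NP), empirical Bayes on 8 residual degrees of freedom and Benjamini-Hochberg adjustment over all tested probe sets. Genotype contrasts and the interaction used deposited values, and tissue contrasts used values minus array medians. The scripts were tested on simulated data, in which the share of unchanged probe sets among limma's genotype calls was well above the nominal rate, so adjusted p-values just under the threshold overstate the certainty of a genotype call. A lower bound took the background level, or the signal where higher, for the group without signal. The named genes are all members, the relatives Lgalsl and Grifin (Lgals6 was not analysed here), the 3 genes most like each well-measured member, and some of the called genes of the lists. Gene positions and promoter windows are from RefSeq (GRCm38.p6). Alternatives varied the scaling, weights, prior, filter, arrays in the fit and each array. The number of arrays limits the precision.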

Additional observations from a re-analysis of the deposited data

Results flagged for a closer look

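Of the genes named above, 8 passed limma's interaction test over all probe sets, which compares the genotype difference in NP with that in AF. No galectin passed it. Of the other listed markers, 1 annulus and tendon marker passed as higher and 3 as lower, and 1 erythroid marker as lower, beside 0.874% of all probe sets. The values are the NP response minus the AF response in log2. Fn1 gave 1.89 (adjusted p = 0.0257) and Ptprc -3.11 (adjusted p = 0.0223). Among neutrophil and precursor genes, Mpo gave -4.31, Elane -4.91, Camp -4.50 and Ltf -3.99 (adjusted p = 0.0175, 0.0177, 0.0177 and 0.0322). Camp was above background on no NP TonEBP +/- array, so its value is not a measured size. The osteoclast genes Acp5 and Atp6v0d2 gave -4.88 and -3.78 (adjusted p = 0.0322 and 0.0177). Neither was above background on any NP array, so no NP response was measured for them. Their values cannot show that the response differed between the tissues. These calls rest on single arrays. Without AF WT array 2, 1 probe set of all passed the interaction test and none of these 8 genes did, and without AF WT array 3 none of them passed either. Without AF TonEBP +/- array 1, Atp6v0d2 alone of the 8 passed. Over 12 omissions Atp6v0d2 kept its call in 10, Mpo, Elane and Camp in 9 each, Fn1 and Ptprc in 6 each, Ltf in 4 and Acp5 in 3, with adjusted p up to 0.135.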

How the results depend on the processing

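No paired analysis was possible because the labels give the groups no shared replicate numbers and tie no AF sample to an NP sample. Every member had 1 probe set, so averaging probe sets was not run. Lgals3, Lgals8 and Lgals9 kept the direction and call of their tissue differences in both genotypes under all settings and omissions tried, with WT ranges over omissions of 8.51 to 9.90, 2.78 to 3.44 and -1.88 to -1.35. With quantile normalisation over all arrays 3 members instead of 6 were called between the tissues in WT. In AF the count of members called between genotypes was 1 without array weights, beside 1347 of all 22206 probe sets. With a weight for each array it was 3 (Lgals1, Lgals8 and Lgals9, adjusted p 6.17e-05, 0.00751 and 0.0114 in limma), beside 7187 of all probe sets. Over single-array omissions it was 0 to 2. The 2 were Lgals1 and Lgals8 (limma, adjusted p = 0.0479) without AF TonEBP +/- array 2, beside 2404 of all probe sets. The interaction count was 2 with a weight for each array, beside 2503 of all probe sets, and 0 to 1 over omissions. The 1 was Lgals1 (limma, adjusted p = 0.0345) without AF TonEBP +/- array 2, beside 1095 of all probe sets.

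Over all probe sets the AF genotype count of 149 became 3 on AF arrays alone, 403 after quantile normalisation within tissues, 1347 without weights and 7187 with a weight for each array, and 6 to 2404 over omissions. The NP count of 81 became 0 on NP arrays alone and 25 without weights, and 11 to 154 over omissions. The interaction count of 194 became 2503 with a weight for each array, and 1 to 1095 over omissions. Between the tissues in WT, 7468 probe sets were higher and 6907 lower, against 4907 and 12425 as deposited, where the median change was -0.84 instead of -0.10. In TonEBP +/- 6861 were higher and 5593 lower, against 4433 and 12021 as deposited, with medians of -0.06 and -0.75.

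Signs turned for several values. Between genotypes in AF, Lgals7 gave 0.00 after quantile normalisation and 0.12 with array weights, and -0.37 to 0.26 over omissions, and Lgals3 -0.20 to 1.17. In NP, Lgals3 gave 0.02 with medians subtracted, 0.04 after quantile normalisation and 0.00 with array weights (-0.11 to 0.07 over omissions), and Lgals3bp 0.01 with medians subtracted (-0.16 to 0.18). Lgals8 ranged from -0.25 to 0.41, and the Lgals3 interaction from -1.19 to 0.18. Between the tissues, Lgals1 in WT, called at 1.19 after median subtraction, gave -0.32 after quantile normalisation. In TonEBP +/- Lgals1 gave -0.64 as deposited, -1.34 after quantile normalisation and -0.22 with array weights, and -0.25 to 0.21 over omissions. Lgals7 gave -0.28 as deposited in WT, and in TonEBP +/- -0.58 as deposited, -0.04 after quantile normalisation, -0.10 with array weights and -0.21 to 0.33 over omissions. The tissue call of Lgals3bp in TonEBP +/- held in 9 of 12 omissions and was lost without AF TonEBP +/- arrays 1 or 2 or NP TonEBP +/- array 3 (adjusted p = 0.0646, 0.126 and 0.0503). The cause of these turns was not tested. Signals below background limit Lgals2, Lgals4, Lgals7 and Lgals12.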
